A study of Mus musculus with 8 samples.

Results

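Tmem163, Rasgef1b, Enpp2, Tmeff2, Tcp11l2, Lhfpl2, Shisa4 and Aplp1 are 8 genes that stood far higher in oligodendrocytes (OLs) than in oligodendrocyte progenitor cells (OPCs) in matched RNA-seq and ribosome footprint libraries. They make up 8 of the 10987 transcripts in the deposited values, and they were chosen by their rise from OPCs to OLs in these same libraries. The OL against OPC values of the 8 genes are therefore a description and were not tested. Both kinds of library were made from 2 cultures of OPCs and 2 cultures of OLs, which gives 8 libraries. The OPCs were derived from epiblast stem cells of male mouse embryos of the 129S/SvEv strain and were kept in medium with bFGF and PDGFA. For the OLs, OPCs were first passaged 2 times in medium without bFGF. They were then differentiated in medium with noggin, IGF-1, cyclic AMP, NT3 and thyroid hormone (T3). Per the study's methods, the lysates of several plates were pooled for each culture, and the OL cultures still hold undifferentiated OPCs. Lysates contained emetine, and monosomes released by micrococcal nuclease gave the footprints.

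Oligodendrocytes wrap axons in myelin, a stack of membrane rich in lipids and in a small set of proteins, and they pass through a premyelinating stage before they do so. Beside the myelin proteins, differentiating OLs make secreted enzymes, surface receptors, transporters and regulators of small GTPases. Enpp2 is a secreted enzyme, Tmeff2, Aplp1, Shisa4, Lhfpl2 and Tmem163 are membrane proteins, Rasgef1b acts on a small GTPase inside the cell, and little is known of Tcp11l2.

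Values are FPKM, fragments normalised for feature length and for sequencing depth. They cover the coding sequence (CDS) for footprints and the full transcript for RNA-seq. FPKM move in steps of 1 aligned base, from which the depth was estimated at 77.9 to 241 Mb (megabases) for RNA-seq and at 93.0 to 249 Mb for footprints, with OL replicate 2 the shallowest in both kinds. The 7 OL markers listed, of 10 looked for, summed to 34.3 to 36.7 FPKM in OPC RNA-seq and to 3271 to 3743 FPKM in OL RNA-seq. The 5 OPC markers listed, of 7, summed to 369 to 382 FPKM in OPCs and to 449 to 495 FPKM in OLs, so that they were no lower in the OL libraries. An entry of 0 can be a failed estimate. Dpm1, a subunit of an enzyme that cells use broadly, is listed at 0 in both OL RNA-seq libraries and has 74.5 and 71.5 FPKM of footprints in the same cultures. In such bulk samples fewer cells of a type and less RNA per cell cannot be told apart.

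Both OL values stood above both OPC values for 8 of 8 genes in RNA-seq, where this holds for 27.6% of the 8346 transcripts tested, and for 8 of 8 in footprints, where it holds for 31.8% of 8342. Since the genes were chosen on this contrast, nothing is read from these shares. With 2 cultures in each group, a two-sided exact permutation test cannot give a p-value below 0.333. The rise ranged widely among the 8 genes, from about 6 times in Shisa4 to genes listed at 0 or near 0 in the OPC libraries.

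**Figure D1:**
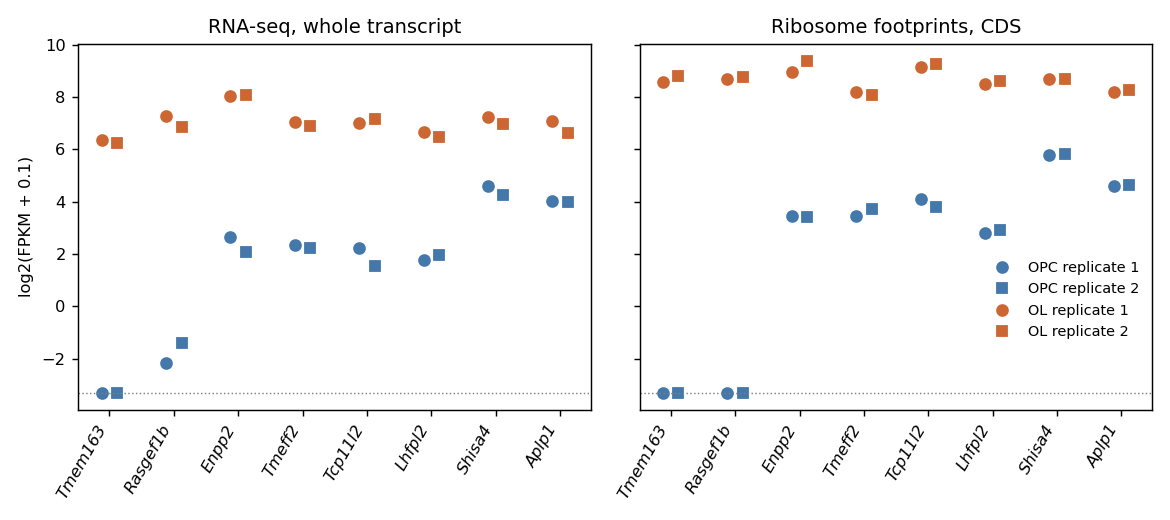
FPKM of the 8 genes in each library, as log2(FPKM + 0.1), for RNA-seq on the left and footprints on the right. Circles are replicate 1 and squares replicate 2, blue for OPCs and orange for OLs, and the dotted line marks a value listed at 0. Every orange point lies above every blue point of its gene, and the 2 genes at the dotted line in OPC footprints are Tmem163 and Rasgef1b.

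Tmem163 and Rasgef1b were the 2 genes with OPC values listed at 0. The bases before their transcription starts, taken from the RefSeq promoter windows of GRCm38.p6, are shown because these genes were at or near 0 in OPCs. That of Aplp1 is shown beside them as a gene that was already present in OPCs. Capitals mark matches to 4 short motifs, on either strand.
Tmem163, chr1:127678097-127678271, minus strand: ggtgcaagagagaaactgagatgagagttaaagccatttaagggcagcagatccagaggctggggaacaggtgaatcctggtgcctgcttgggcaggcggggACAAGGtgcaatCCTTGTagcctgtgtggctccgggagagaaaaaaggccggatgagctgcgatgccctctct
Rasgef1b, chr5:99252928-99253177, minus strand: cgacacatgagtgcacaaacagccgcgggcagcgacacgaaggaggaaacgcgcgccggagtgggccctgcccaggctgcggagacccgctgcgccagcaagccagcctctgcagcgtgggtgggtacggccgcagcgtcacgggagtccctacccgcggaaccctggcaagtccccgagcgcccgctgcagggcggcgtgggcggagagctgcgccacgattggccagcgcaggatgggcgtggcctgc
Aplp1, chr7:30445583-30445832, minus strand: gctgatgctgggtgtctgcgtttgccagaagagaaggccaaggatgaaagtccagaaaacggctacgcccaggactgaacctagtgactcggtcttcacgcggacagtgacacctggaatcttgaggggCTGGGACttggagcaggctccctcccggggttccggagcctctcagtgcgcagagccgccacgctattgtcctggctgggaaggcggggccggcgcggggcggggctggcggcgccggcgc

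The motifs searched were an E-box (CAGCTG), a SOX core (ACAANG), a MYRF-type motif (CTGGNAC) and a thyroid hormone half-site (AGGTCA). They were sought in the 250 bases before the start. N stands for any base, so the SOX core and the MYRF-type motif are both loose forms of what these factors bind. RefSeq windows were matched for 7 of the 8 genes, all but Enpp2. The RefSeq start lies between 0 and 321 bases from the start of the transcript in the files, and the printed bases end before both. The window of Tmem163 holds the loose SOX core in both orientations, as ACAAGG at 148 to 143 and as CCTTGT at 136 to 131 bases before the RefSeq start. That of Aplp1 holds CTGGGAC, a match to the loose form CTGGNAC, at 121 to 115 bases. The window of Rasgef1b holds none of the 4 motifs. Over the 7 windows, the SOX core was found in 2, the MYRF-type motif in 2, the E-box in 1 and the half-site in none, while all RefSeq windows searched hold them in 36.3%, 16.1%, 13.0% and 14.0%. These counts include the SOX core of Tcp11l2 and the MYRF-type match of Shisa4, which lie after the start of the listed transcript. A match is a string of letters and not a measured site.

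Tmem163 (chr1:127486546-127678096, minus strand, 9 exons), a membrane protein that binds and exports zinc, is listed at 0 in both OPC libraries of each kind. In the OLs its RNA-seq values were 82.8 and 75.4 FPKM and its footprint values 378 and 444 FPKM. At the estimated depth, 3 reads of 30 bases would have given 0.136 and 0.197 FPKM in the OPC RNA-seq libraries and 0.417 and 0.501 FPKM in the OPC footprints. The gene was thus read deeply in both OL cultures, with no fold change to give against the OPCs. In Gencode vM21 its exons share 152 bases with Mgat5 on the opposite strand, and since the counting is not stated to use strand, reads over those bases cannot be assigned.

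Rasgef1b (chr5:99217426-99252927, minus strand, 14 exons), an exchange factor that loads the small GTPase Rap2 with GTP, had 0.124 and 0.276 FPKM in OPC RNA-seq and 157 and 116 FPKM in OL RNA-seq. At the estimated depth the OPC values correspond to about 2.98 and 4.57 reads of 30 bases. A multiple of that depth would account for the values as well and give more reads. The OPC values are near 0, so no fold is given. Its footprints are listed at 0 in both OPC cultures and stood at 410 and 436 FPKM in the OLs. The 2 OL footprint values are within 1.06 times of each other, whereas the RNA-seq values differ by 1.35 times.

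Enpp2 (chr15:54838901-54920002, minus strand, 25 exons), autotaxin, is the secreted lysophospholipase D that makes lysophosphatidate. It had 6.20 and 4.12 FPKM in OPC RNA-seq and 260 and 268 FPKM in OL RNA-seq, a ratio of means of 51.2. Its OL RNA-seq level, 264 ± 5.23 FPKM (SD, n = 2), was the highest of the 8 genes and ranked 147 among all listed transcripts. Footprints rose from 10.9 and 10.4 FPKM to 497 and 672 FPKM, by 54.8 times. Its log2 differences in the 2 kinds, 5.68 and 5.75, are nearly the same.

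Tmeff2 (chr1:50927519-51187270, plus strand, 10 exons) is a transmembrane protein with follistatin-like and EGF-like domains that can bind PDGF-AA. In RNA-seq it went from 4.99 and 4.55 FPKM to 132 and 120 FPKM. In footprints the OPC values were 10.9 and 13.2 FPKM, against 294 and 271 FPKM in the OLs. These are ratios of means of 26.4 and 23.5, and Tmeff2 had the lowest OL footprint level of the 8 genes, with a range that just overlaps that of Aplp1.

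Tcp11l2 (chr10:84576626-84614359, plus strand, 10 exons) is a relative of the testis protein TCP11. It had 4.58 and 2.78 FPKM in OPC RNA-seq and 129 and 143 FPKM in OL RNA-seq, a ratio of 36.8. Footprints gave 17.1 and 13.9 FPKM for the OPC cultures against 560 and 615 FPKM for the OL cultures, a ratio of 37.8. With a mean of 588 FPKM it shared the highest OL footprint level with Enpp2, although 7 genes including Tcp11l2 lay within 79.1 to 138 FPKM in OL RNA-seq.

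Lhfpl2 (chr13:94057796-94195409, plus strand, 4 exons) encodes a tetraspan membrane protein. It had 3.33 and 3.82 FPKM in OPC RNA-seq and 102 and 89.1 FPKM in OL RNA-seq, and 6.83 and 7.54 FPKM in OPC footprints and 366 and 393 FPKM in OL footprints. The footprints thus rose by 52.8 times and the RNA by 26.7 times, the widest gap among the 6 genes with values above 0 in every library. The log2 differences are 5.70 and 4.70.

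Shisa4 (chr1:135371057-135375237, minus strand, 5 exons), a small transmembrane protein of the Shisa family, was the gene with the highest level in OPCs and the smallest rise. RNA-seq gave 24.0 and 19.1 FPKM in OPCs, compared with 151 and 124 FPKM in OLs, a ratio of 6.39. Its footprint levels were 54.9 and 56.5 FPKM before differentiation and 412 and 408 FPKM after it, a ratio of 7.36. Replicates of its footprints lay within 1.03 times of each other in both cell types.

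Aplp1 (chr7:30434982-30445535, minus strand, 17 exons), a relative of the amyloid precursor protein best known from neurons, had 16.1 and 15.9 FPKM in OPC RNA-seq and 137 and 98.3 FPKM in OL RNA-seq, a ratio of 7.34. Footprints stood at 24.1 and 24.6 FPKM in the OPC cultures, against 293 and 312 FPKM in the OL cultures, a ratio of 12.4. The footprint ratio exceeded the RNA ratio in both pairs of cultures. Since Aplp1 is known from neurons, the neuron markers are given with it. The 6 of 7 listed summed to 112 to 124 FPKM in OPC RNA-seq and to 163 to 173 FPKM in OL RNA-seq, with Map2 and Tubb3 making up most of the sum. In footprints they summed to 267 to 314 FPKM in OPCs and to 388 to 420 FPKM in OLs, where Tubb3 had 95.1 and 112 FPKM, Syt1 5.75 and 21.2 FPKM and Gad1 1.56 and 1.47 FPKM, against 43.2 and 40.9, 2.19 and 4.79, and 0 and 0 FPKM in OPCs. Footprints of Rbfox3 are listed at 0 in all 4 libraries. Of 7 astrocyte markers, the 4 listed summed to 170 to 223 FPKM in OPC and to 226 to 302 FPKM in OL RNA-seq. Aldoc made up most of each sum, at 209 and 159 FPKM before differentiation and 235 and 187 FPKM after it. From OPCs to OLs, RNA of Slc1a2 went from 13.5 and 10.6 to 47.6 and 36.5 FPKM. Its footprints went from 32.0 and 39.0 to 119 and 84.8 FPKM. RNA of Aldh1l1 went from 0.67 and 0.39 to 5.41 and 1.27 FPKM. Gfap RNA reached 14.2 FPKM in OL replicate 1 against 2.11 FPKM in OL replicate 2. Footprints of Aldh1l1 and Gfap are listed at 0 in OL replicate 2. Enpp2 is also made by choroid plexus, of whose 5 markers only Kcnj13 is listed, at 0 and 2.72 FPKM in OL RNA-seq and at 2.42 and 5.32 FPKM in OL footprints, against 0 and 0 FPKM in OPC footprints. The part of other cells in these levels was not tested.

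**Figure D2:**
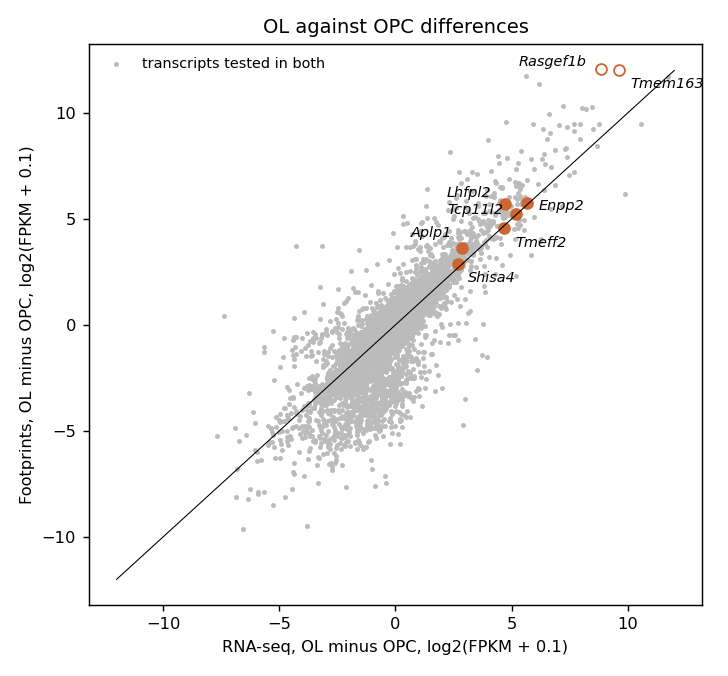
Difference between OLs and OPCs, as log2(FPKM + 0.1), in RNA-seq on the horizontal axis and in footprints on the vertical axis, for all transcripts tested in both kinds (grey) and the 8 genes (orange). The line marks equal differences, and open circles are genes with an OPC value listed at 0, whose place depends on the pseudocount of 0.1. Lhfpl2 and Aplp1 lie above the line and the other 4 filled points close to it.

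The levels fall into a tighter order in OLs than in OPCs. In OL RNA-seq, Enpp2 was followed by Shisa4, Rasgef1b, Tcp11l2, Tmeff2, Aplp1 and Lhfpl2, whose neighbouring ranges overlap at every step, and Tmem163 stood below them. In OPC RNA-seq the order was Shisa4, Aplp1, Enpp2, Tmeff2, Tcp11l2, Lhfpl2, Rasgef1b and Tmem163, and only Enpp2 to Lhfpl2 overlap with their neighbours. In OL footprints, Tcp11l2 and Enpp2 overlap at the top, Rasgef1b, Tmem163 and Shisa4 overlap below them, Lhfpl2 (366 to 393 FPKM) overlaps with Tmem163 (378 to 444 FPKM) but not with Shisa4, and Aplp1 and Tmeff2 overlap at the bottom. In OL libraries of both kinds each of the 8 genes exceeded at least 94.0% of listed transcripts, from 94.0% for the RNA of Tmem163 to 98.7% for that of Enpp2.

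Whether the 8 transcripts carried more footprints for their RNA than other transcripts was tested with the ribosome density (RD), the ratio of footprint to RNA FPKM within a culture. RD was taken on the log2 scale relative to the culture's median over 8056 transcripts and averaged over both cell types, so that it is a mean and not the OL against OPC difference on which the genes were chosen. The same OL values enter both, so the test is not fully separate from the choice, and the OPC values, which are given for each gene, make up the other part of the mean. The medians themselves were 1.68 and 1.72 in OPCs and 2.00 and 1.71 in OLs. The test, limma with Benjamini-Hochberg adjustment over all transcripts, could be read for the 6 genes with values above 0 in every library, of which 3 were higher and none was lower. Over all transcripts 25.0% were called higher and 19.0% lower, so a count of 3 in 6 says nothing particular about these genes. The median relative RD was 0.53 over the 6 genes and -0.07 over all transcripts tested.

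Tcp11l2 had 3.74 and 5.00 footprint FPKM per RNA FPKM in OPCs and 4.36 and 4.31 in OLs. Relative to the culture medians, its RD was 1.13, 1.50, 1.12 and 1.34 on the log2 scale, and the mean was 1.27 ± 0.11 (SE, 4 cultures, adjusted p = 0.00304 by limma), higher in 4 of 4 cultures. The OPC and OL values of Tcp11l2 overlap. By this ratio Tcp11l2 stood at about 2.41 times the median transcript, as a mean over both cell types. The ratio takes RNA over the whole listed transcript, which for Tcp11l2 starts 321 bases before the RefSeq start. How far the ratio depends on that start was not tested.

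Shisa4 had an RD of 2.29 and 2.96 in OPCs and of 2.72 and 3.29 in OLs, and its mean relative RD was 0.65 ± 0.13 (SE, adjusted p = 0.0173 by limma), higher in 4 of 4 cultures and with overlapping cell types. For Lhfpl2 the RD was 2.05 and 1.97 in OPCs and 3.59 and 4.41 in OLs, and the mean relative RD was 0.66 ± 0.13 (SE, adjusted p = 0.0193 by limma), higher in 4 of 4 cultures. Its cell types do not overlap. Relative to the medians, Lhfpl2 stood at 0.26 and 0.18 in OPCs and at 0.84 and 1.37 in OLs, so most of its mean comes from the OLs. The OL values also entered the choice of the gene, so the call of Lhfpl2 is not separate from that choice. Without OPC replicate 1 or 2 the adjusted p became 0.0597 and 0.104 for Shisa4 and 0.0925 and 0.0915 for Lhfpl2.

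Tmeff2, at 0.41 ± 0.12 (SE, adjusted p = 0.0501 by limma), missed the threshold and passed it with the replicate block, which pairs each OL culture with the OPC culture of its number (adjusted p = 0.0489, range over the alternatives 0.0295 to 0.216). Enpp2 (0.27 ± 0.16, adjusted p = 0.223) and Aplp1 (0.16 ± 0.16, adjusted p = 0.428) did not pass the test. Relative RD of Aplp1 was -0.17 and -0.16 in OPCs and 0.10 and 0.89 in OLs, with no overlap. Without OL replicate 1 the mean of Enpp2 became 0.41 (adjusted p = 0.0479, range over the alternatives 0.0479 to 0.597) and that of Aplp1 0.35 (adjusted p = 0.0347, range 0.0347 to 0.880).

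The change in RD from OPCs to OLs shares the contrast of the selection and is given without a test. It was 0.83 and 1.18 on the log2 scale for Lhfpl2 in the 2 pairs of cultures and 0.52 and 1.04 for Aplp1, against a median of 0.10 over all transcripts. For Shisa4 it was 0.25 and 0.16, and for Enpp2 0.12 and 0.01. For Tcp11l2 (0.24 and -0.18) and Tmeff2 (0.05 and -0.34) the pairs went in opposite directions. Tmem163 and Rasgef1b have an RD in OLs only. It was 4.57 and 5.89 for Tmem163 and 2.61 and 3.76 for Rasgef1b, which put Tmem163 at the 91.1% and 93.3% points of the transcripts tested and Rasgef1b at 66.2% and 83.1%.

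**Figure D3:**
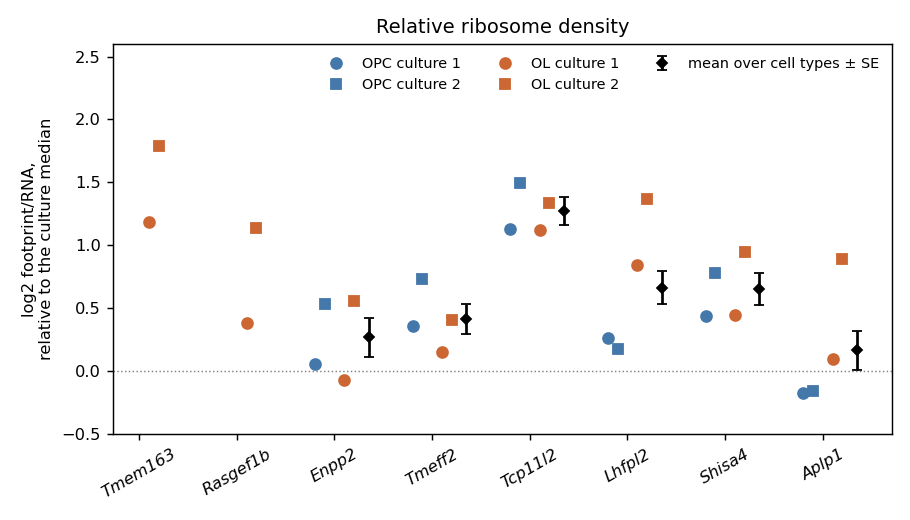
Relative ribosome density of the 8 genes in each culture, as log2 of footprint over RNA FPKM minus the culture's median. Blue points are OPCs, orange points OLs, and black diamonds show the mean over both cell types with its SE from limma. Tcp11l2 is highest in OPCs and Tmem163 in OLs, the OL points of Lhfpl2 and Aplp1 lie above their OPC points, and Tmem163 and Rasgef1b have OL points only.

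The study examined the decoding of Phe and Lys codons, so the codon use of the 8 coding sequences was taken from Gencode vM21. UUU made up 16.7% of Phe codons in Lhfpl2 (2 of 12), 21.4% in Aplp1 (3 of 14) and 22.2% in Tmeff2 (2 of 9), against a median of 42.9% over all listed transcripts. Rasgef1b had 39.1%, Tcp11l2 and Shisa4 33.3% each, Tmem163 42.9% and Enpp2 51.2%, the only one above the median. AAA made up 75.0% of Lys codons in Lhfpl2 (6 of 8), 66.7% in Shisa4 (2 of 3), 62.5% in Tmeff2 (10 of 16) and 55.6% in Tcp11l2 (15 of 27), against a median of 36.8%. Enpp2 had 51.0%, Tmem163 50.0%, Rasgef1b 36.7% and Aplp1 30.8%. Low UUU with high AAA is thus seen in Lhfpl2, Tmeff2, Shisa4 and Tcp11l2, from few codons in the shorter proteins, and the shares were not tested against other transcripts.

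**Figure D4:**
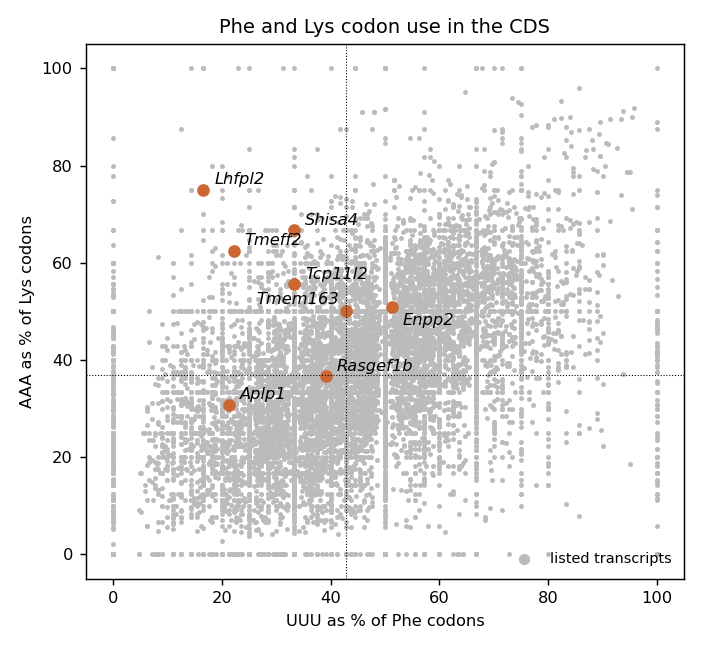
Share of UUU among Phe codons (horizontal axis) and of AAA among Lys codons (vertical axis), in percent, for listed transcripts (grey) and the 8 genes (orange), with dotted lines at the medians. Lhfpl2, Shisa4, Tmeff2 and Tcp11l2 lie in the upper left, and Aplp1 is low in both shares.

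Relatives and pathway partners of the 8 genes, which were not members, were tested between OLs and OPCs. The lists were drawn with earlier results of these data known, so their counts and medians only describe them. Of 95 genes in 8 lists, 56 are listed and 48 were tested in each kind. In RNA-seq 18 were higher and 5 lower in OLs (limma, adjusted p under 0.05), where 13.0% and 20.2% of all tested transcripts were. In footprints 16 were higher and 4 lower, where 12.8% and 10.8% of all were. These counts include genes that passed the minimum on abundance only through the group where they are high. They are Lpar1, Psen2, Sorl1, Shisa9 and Shisa3 in RNA-seq, and Lpar1 and Shisa3 in footprints. The median log2 difference of the list genes was 0.29 in RNA-seq and 0.64 in footprints, against -0.23 and -0.16 over all transcripts. When either OPC culture was left out, the count of list genes higher in RNA-seq fell to 8 or 4 and no list gene was called in footprints. Without OL replicate 1 or 2, 18 or 15 of the 23 calls in RNA-seq and 14 or 5 of the 20 calls in footprints were kept. No list gene called changed sign in any alternative in which it was tested. Without the variance trend, Adam10, Pdgfra, Shisa7, Slc30a9 and Slc39a12 were not called in RNA-seq, nor were Aph1a, Lpar6, Pdgfa, Pdgfra, Rap2b and Slc39a12 in footprints.

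The lysophosphatidate list holds the other ENPP enzymes, the receptors of the product of Enpp2 and the phosphatases that break it down. In RNA-seq 2 of 6 tested rose and 1 fell. Lpar1, a lysophosphatidate receptor known from OLs, had 0.06 and 0.09 FPKM in OPC RNA-seq and 6.28 and 7.11 FPKM in OLs (adjusted p = 0.00347), and its footprints went from 0 in both OPC cultures to 25.2 and 15.6 FPKM (adjusted p = 0.0111). In both kinds Lpar1 passed the minimum on abundance only through its OL values, so its calls rest on the group where it is high. Enpp5 rose by 1.70 ± 0.33 (SE) on the log2 scale in RNA-seq and by 2.16 ± 0.21 in footprints. Lpar6 fell by 1.88 ± 0.36 in RNA-seq (adjusted p = 0.0136) and by 1.62 ± 0.34 in footprints (adjusted p = 0.0418), the latter at 0.0515 with the replicate block. Lpar4 (-0.51 ± 0.28, adjusted p = 0.209), Enpp4 and the phosphatase Plpp3 did not pass in either kind.

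In the amyloid precursor list 14 of 20 genes are listed, and 5 of 13 tested rose and 1 fell in RNA-seq. Bace1, the beta-secretase, had 10.9 and 8.62 FPKM in OPC and 62.3 and 41.9 FPKM in OL RNA-seq, a log2 difference of 2.39 ± 0.26 (adjusted p = 0.00265), and rose by 3.28 ± 0.15 in footprints (adjusted p = 0.00317). The adaptor proteins Apbb1 (1.60 ± 0.26) and Apba2 (2.15 ± 0.29), which bind the cytoplasmic tail of the precursor, rose in RNA-seq, and both also rose in footprints. Psen2, a catalytic subunit of gamma-secretase, had 0.29 and 0.79 FPKM in OPC and 12.6 and 8.26 FPKM in OL RNA-seq, and the sorting receptor Sorl1 had 0.13 and 0 FPKM in OPC and 3.80 and 1.26 FPKM in OL RNA-seq. Both rose in RNA-seq and missed the threshold in footprints, and their sizes follow the pseudocount, with a log2 difference of 4.13 for Psen2 and 3.93 for Sorl1 that becomes 2.88 and 1.63 with a pseudocount of 1. Psen2 and Sorl1 passed the minimum on abundance only through their OL values. Adam10, the alpha-secretase, fell by 0.72 ± 0.17 in RNA-seq (adjusted p = 0.0228) and did not pass in footprints (-0.28 ± 0.17, adjusted p = 0.305). Of the gamma-secretase subunits, Aph1a rose in footprints (0.87 ± 0.16, adjusted p = 0.0318) and missed the threshold in RNA-seq (0.29 ± 0.28), and the difference between the kinds was not tested.

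The zinc list holds the transporters and metallothionein genes beside Tmem163, of which 13 of 28 are listed and 11 were tested. Slc39a12 rose by 2.83 ± 0.60 in RNA-seq (adjusted p = 0.0185) and by 2.57 ± 0.56 in footprints (adjusted p = 0.0436, and 0.0717 with the replicate block). Slc30a9 rose by 0.63 ± 0.17 in RNA-seq (adjusted p = 0.0343) and did not pass in footprints (0.90 ± 0.27, adjusted p = 0.0866). The exporter Slc30a1 had 14.2 and 16.6 FPKM in OPC and 14.8 and 11.2 FPKM in OL RNA-seq, and 9 of 11 zinc genes did not pass in RNA-seq.

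Among Rap2 and its effector kinases, Mink1 rose by 3.08 ± 0.21 in RNA-seq (adjusted p = 0.000789) and by 3.82 ± 0.48 in footprints, and Tnik by 1.28 ± 0.23 and 1.74 ± 0.19. Rap2b and Rap2c did not pass in RNA-seq, while footprints of Rap2b fell by 0.56 ± 0.13 (adjusted p = 0.0476, 0.0701 with the replicate block, 0.123 with median-ratio scaling, 0.0518 with no minimum and 0.145 without the variance trend). Map4k4, at 230 and 190 FPKM in OPC and 209 and 164 FPKM in OL RNA-seq, did not pass.

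Tmeff1, the closest relative of Tmeff2, rose by 2.83 ± 0.17 in RNA-seq (adjusted p = 0.000547), and Pdgfa and Pdgfra, the ligand and its receptor, rose by 1.69 ± 0.20 and 1.33 ± 0.27. Pdgfra marks OPCs, and its RNA stood at 53.5 and 31.3 FPKM in the OPC cultures against 105 and 101 FPKM in the OL cultures. In the LHFPL family, Lhfpl3 rose by 1.58 ± 0.16, Lhfp fell by 1.52 ± 0.25 and Lhfpl4 did not pass. In the Shisa family, Shisa9 (3.55 ± 0.46), Shisal1 (2.52 ± 0.37) and Shisa7 (1.25 ± 0.37) rose, whereas Shisa5 fell by 1.51 ± 0.28 in RNA-seq. Footprints of Shisa5 missed the threshold (-2.00 ± 0.47, adjusted p = 0.0514). Shisa7 was called in RNA-seq at an adjusted p of 0.0485, and the call ended with no minimum (0.0747), with a minimum mean of 5 FPKM (0.0567), without the variance trend (0.0547) and without OL replicate 1 (0.129) or 2 (0.0659). Shisa3 fell from 3.21 and 2.48 FPKM to 0.18 and 0 FPKM (adjusted p = 0.0210). In RNA-seq Shisa9 passed the minimum on abundance only through its OL values. Shisa3 passed it only through its OPC values in both kinds, with OPC footprints of 3.24 and 3.73 FPKM and OL footprints listed at 0. In footprints the replicate block gave Shisa7 an adjusted p of 0.0616 and Shisa3 one of 0.115, which ends both calls. Tcp11l1, the only listed relative of Tcp11l2, had a log2 difference of 0.30 ± 0.43 and did not pass. Families thus split, with members on both sides in the LHFPL and Shisa lists.

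**Figure D5:**
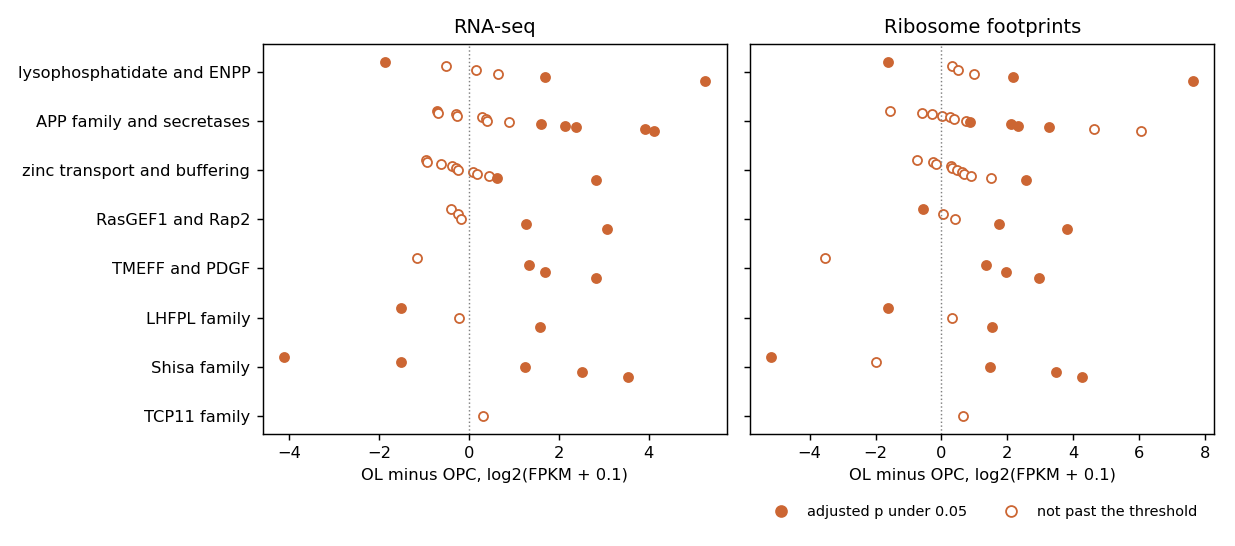
Difference between OLs and OPCs, as log2(FPKM + 0.1), for the tested genes of each list in RNA-seq (left) and footprints (right). Filled points passed an adjusted p of 0.05 and open points did not. The point farthest to the right is Lpar1 in both kinds and the one farthest to the left Shisa3, both with values at or near 0 in a cell type, and with a pseudocount of 1 Mink1 (2.92) and Psen2 (2.88) exceed Lpar1 (2.84) in RNA-seq.

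The nearest profiles to each of the 8 genes, by Euclidean distance of log2(FPKM + 0.1) over the 8 libraries after centring, were sought among 8055 other transcripts. Tmem163 and Rasgef1b were nearest to each other, at 1.87, followed by Myrf, a regulator of myelin genes, at 2.21 and 2.28. Enpp2 was nearest to Sirt2 (0.52) and Col9a1 (0.72), Tmeff2 to Sema5a (0.69) and Cyfip2 (0.84), and Tcp11l2 to S100b (0.73) and Gpr17 (0.81). Lhfpl2 was nearest to Bcas1 (0.64) and Gjc3 (0.67), Shisa4 to Agpat4 (0.53) and Hid1 (0.53), and Aplp1 to Mfsd2a (0.55) and Tns3 (0.70). Gpr17 and Bcas1 mark OLs on the way to myelination, and Gjc3 encodes a gap junction protein of OLs. The 8 genes were chosen by their rise in these same libraries, so their nearest profiles had to be transcripts with a like rise. Nothing is read from the names. OPC values of Tmem163, Rasgef1b and Myrf are at or near 0, so their distances depend on the pseudocount of 0.1.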

How the data were processed

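Footprint and RNA-seq libraries of 2 OPC and 2 OL cultures were grouped by their labels. The authors deposited FPKM values, made per the study's methods and submitters' notes with HISAT2 2.1.0 on GRCm38 and StringTie 1.3.5 with ballgown, with footprints tabulated over the CDS and RNA-seq over transcripts. Replicates were kept apart. FPKM are not counts, so limma 3.58.1 (R 4.3.3, eBayes with trend) was used on log2(FPKM + 0.1) wherever the mean reached 1 FPKM, with Benjamini-Hochberg adjustment and a two-sided threshold of 0.05. The fits were tested on simulated data. Same-numbered cultures were taken as pairs, since OLs were differentiated from the OPC replicates. That equal numbers mark a pair is not stated. The deviations of these pairs correlated at 0.108 in RNA-seq, 0.086 in footprints and 0.060 in RD. The study calls the cultures biological replicates, without stating whether OPC derivations were separate. Depth was estimated from the steps of the 1500 lowest values, taking the smallest depth whose score reached 0.75 of the best, and a multiple of it accounts for the values as well. Coordinates, exons and codons come from Gencode vM21, motifs and promoters from RefSeq (GRCm38.p6). The text names the 8 genes, list genes past the threshold with the closest relatives, and the 2 nearest profiles of each gene. The genes and lists were chosen with earlier results of these data known. The smallest p-values rest on variance shared between transcripts.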

Additional observations from a re-analysis of the deposited data

Results flagged for a closer look

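Relative ribosome density of Aplp1 lay below the culture medians in both OPC cultures (mean -0.17 on the log2 scale) and above them in both OL cultures (mean 0.49). The difference between the cell types was not tested, since Aplp1 was chosen on the OL against OPC contrast, and the OL values of 0.10 and 0.89 differ more from each other than the OPC values do.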

How the results depend on the processing

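The alternatives were a pseudocount of 1, no minimum, a minimum mean of 5 FPKM, median-ratio scaling, no variance trend, the replicate block and each culture left out. The differences of the 6 genes above 0 in every library kept their direction in all of them. Since the genes were chosen by this rise, nothing is read from that. The transcripts called in RNA-seq (2772) ranged from 364 to 2599 with a culture left out, those in footprints (1969) from 0 to 3442, and those in ribosome density (3550) from 1207 to 5314. The 0 of footprints, from limma without either OPC culture, stands beside 1936 and 1927 transcripts at an unadjusted p under 0.05. Without the trend, 1036 were called in footprints. Median-ratio scaling moved the median RNA-seq difference by 0.18 and the share of calls that were higher from 39.1% to 51.5%. The list genes higher in OLs ranged from 4 to 13 in RNA-seq and from 0 to 12 in footprints with a culture left out, and those lower from 0 to 8 and from 0 to 6. The 4 list genes lower in footprints became 2 without the trend and 1 with the replicate block. The paired fit called 3323 in RNA-seq, 1735 in footprints and 3281 in density, each within 1.5 times of the unpaired count. The 3 of the 8 genes called in density became 1 to 6 with a culture left out. Shisa4 also missed the threshold without the trend (adjusted p = 0.0503), and Tmeff2 passed it with a pseudocount of 1 (0.0371), with no minimum (0.0381) and without OL replicate 1 (0.0295). The density of Aplp1 was -0.032 without OL replicate 2 and 0.347 without OL replicate 1. Tcp11l2 passed in all 10 alternatives. The causes were not tested. A culture left out leaves a group with 1 culture, which is then assumed to vary like the other group.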
